A study of Mus musculus with 8 samples.

Results

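The genes described here are 6 small heat shock proteins and the co-chaperone Bag3: Hspb1 (ENSMUSG00000004951), Cryab (ENSMUSG00000032060), Hspb8 (ENSMUSG00000041548), Hspb2 (ENSMUSG00000038086), Hspb6 (ENSMUSG00000036854), Hspb7 (ENSMUSG00000006221) and Bag3 (ENSMUSG00000030847). They were taken by Ensembl identifier, which made 7 of the 28785 genes listed in at least 1 library, and all 7 were listed in all 4 libraries.

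Small heat shock proteins share an alpha-crystallin domain, assemble into oligomers and bind unfolding proteins without using ATP, which holds the clients until other chaperones refold or degrade them. Their genes divide into broadly expressed, stress-responsive members and members found mainly in heart and skeletal muscle. BAG3 joins HSP70 through its BAG domain to small heat shock proteins, above all HSPB8, and steers damaged proteins toward autophagy. Heat shock factor 1 is the transcription factor that turns on many chaperone genes during heat stress, by binding inverted repeats of the bases GAA known as heat shock elements.

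RNA came from mouse embryonic fibroblasts, cells grown from embryonic connective tissue, with the genotype TSC2+/+ on the C57BL/6J strain in every group. The unstressed cells (Control) had no heat shock, and the heat shock cells (PostHS) were held at 42 °C for 1 h and then recovered at 37 °C for 3 h. Each condition was separated into cytoplasm and a chromatin pellet, and 1 RNA-seq library was deposited per fraction and condition. The 4 chromatin libraries of the m6A experiment (inputs and immunoprecipitates) were not analysed here.

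With 1 library in each group there was no replicate spread and no significance test, so all differences are between single libraries. The library totals ran from 8292312 reads (cytoplasm, unstressed) to 19536459 reads (chromatin, heat shock), and the 10 genes with the most reads took 21.8% of reads in unstressed chromatin but 79.8% in cytoplasm after heat shock. Values are RPKM, reads scaled to the gene's length and to the library's total. Intervals are exact 95% intervals from the recovered read numbers (Poisson for a level, conditional binomial for a ratio, Clopper-Pearson for a share). They cover counting error only and leave out any spread between libraries. PCR copies cannot be told from separate molecules without molecular identifiers, so even the counting error may be larger than these intervals show. In such bulk RNA, fewer cells with an RNA and less of it per cell cannot be told apart. The deposited values carry identifiers without gene names, so the fibroblast label was not checked against marker genes here.

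On the GRCm38.p6 annotation of RefSeq, Hspb1 lies at chr5:135887919-135889563, Hspb8 at chr5:116408491-116422864, Hspb6 at chr7:30552535-30555443, Hspb7 at chr4:141420779-141425310 and Bag3 at chr7:128523583-128546981. Hspb2 lies at chr9:50751072-50752354, inside the RefSeq span of Cryab at chr9:50745951-50756636. The length behind each gene's RPKM, as recovered from the values, equalled the RefSeq span for Hspb1 (1645 bp), Hspb8 (14374 bp) and Hspb2 (1283 bp). It was 4533 bp against 4532 bp for Hspb7 and 23366 bp against 23399 bp for Bag3. For Hspb6 the implied length was 3266 bp against 2909 bp, and for Cryab 3876 bp against 10686 bp, so the Cryab gene model behind the values was shorter than in RefSeq, and whether it includes Hspb2 is not known. Other genes overlap some of these spans in RefSeq: the lncRNA Gm36841 that of Hspb8, Lin37 and the miRNA Gm38670 that of Hspb6, and 2310030G06Rik that of Cryab. Strand handling is not given in the sources used here, so reads of overlapping genes may be shared.

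RefSeq start-site windows of GRCm38.p6, 250 bases before to 50 after each annotated start, were found for 5 of the 7 genes, with 2 starts for Hspb6. They are shown because a pair of facing heat shock element units, GAANNTTC (which reads the same on both strands), was found in the windows of Hspb1, Hspb8, Bag3 and 1 start of Hspb6. The motif was in 7.86% of all 32851 windows. The Hspb1 window held it at positions -117 to -110 and -97 to -90 before the start. Below are the 250 bases upstream of Hspb1 (chr5:135887669-135887918, plus strand) and, for the others, 30 bases around the match, with each match in capitals.
Hspb1: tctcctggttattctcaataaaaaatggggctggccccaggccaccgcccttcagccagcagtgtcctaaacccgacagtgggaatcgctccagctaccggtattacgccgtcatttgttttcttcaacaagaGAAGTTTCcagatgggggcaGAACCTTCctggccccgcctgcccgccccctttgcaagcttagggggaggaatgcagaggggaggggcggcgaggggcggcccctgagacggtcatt
Hspb8: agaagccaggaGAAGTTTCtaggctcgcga
Hspb6: aagtaattattGAAGTTTCtaaataaggaa
Bag3: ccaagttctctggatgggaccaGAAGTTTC

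The Hspb8 stretch is chr5:116422844-116422873 (minus strand) and its match covers positions 3 to 10 after the start. The Bag3 stretch is chr7:128523603-128523632 (plus strand) with the match at 43 to 50 after the start, and the Hspb6 stretch is chr7:30553170-30553199 (plus strand) with the match at -120 to -113 before the second listed start. All 4 windows held the same 8 bases, GAAGTTTC, which with its reverse complement occurred in 1.21% of all windows. That octamer was singled out after the matches were seen. The opposite arrangement, TTCNNGAA, was in none of the 6 windows against 8.52% of all, and 3 alternating units were in none against 0.603%. TATAAA, searched on both strands, was in 1 of the 6, that of the second Hspb6 start, and in 13.6% of all. The Hspb7 window and the first Hspb6 window held none of these motifs. A match describes the letters of a window only.

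Together the 7 genes took a larger part of the RNA after heat shock in both fractions. They had 1165 reads in unstressed chromatin (63.4 RPM, reads per 1000000 reads of the library), 7203 in chromatin after heat shock (369 RPM), 402 in unstressed cytoplasm (48.5 RPM) and 2101 in cytoplasm after heat shock (189 RPM). Hspb8 and Bag3 held most of them without stress: Hspb8 52.96% (50.05 to 55.86) in chromatin and 48.0% (43.0 to 53.0) in cytoplasm. After heat shock the Hspb8 share was 27.4% (26.4 to 28.5) in chromatin and 23.9% (22.1 to 25.8) in cytoplasm. The Hspb1 share was 0.687% (0.297 to 1.35) in unstressed chromatin and 19.4% (18.5 to 20.3) after heat shock, and 2.24% (1.03 to 4.21) and 30.9% (28.9 to 32.9) in cytoplasm. These shares count reads and are not divided by gene length, so they weigh the long genes Bag3 and Hspb8 more than RPKM does.

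**Figure D1:**
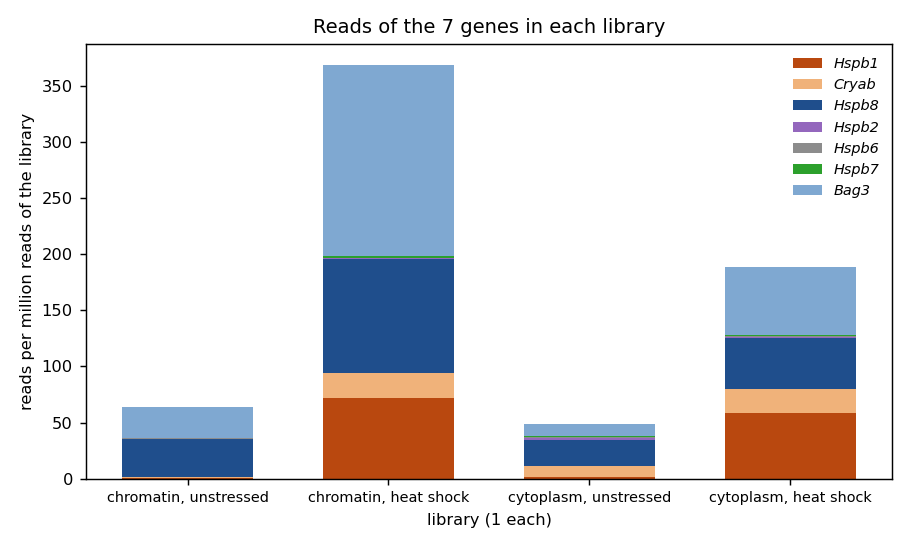
RPM of each gene (vertical axis, reads per 1000000 reads of the library) in the 4 libraries, stacked by gene. The whole bar stands at 63.4 and 369 in chromatin and at 48.5 and 189 in cytoplasm, without and after heat shock, and Hspb1 is a thin band only without it.

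Hspb1 encodes HSP25 (HSP27 in human), a broadly expressed small heat shock protein that protects the actin cytoskeleton. Its RPKM in chromatin was 0.265 (0.114 to 0.522, 8 reads) without heat shock and 43.5 (41.2 to 45.8, 1397 reads) after it. In cytoplasm the values were 0.660 (0.302 to 1.25, 9 reads) and 35.4 (32.8 to 38.3, 649 reads). Both heat shock libraries were high and both unstressed libraries low, with no overlap of their counting intervals. The ratio was 164-fold in chromatin (83.1 to 381) and 53.7-fold in cytoplasm (28.1 to 118), where the width comes from the few unstressed reads. By the log2 ratio of RPKM + 1 it stood 7th from the highest of 4635 genes in chromatin and 3rd of 4505 in cytoplasm, among genes whose RPKM averaged 1 or more across the libraries. Cryab stood 69th, Bag3 126th and Hspb8 328th in chromatin, and 174th, 116th and 226th in cytoplasm. Hspb1 and Bag3 averaged 1 RPKM or more only through their heat shock libraries, so their places carry no support of their own.

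Cryab encodes alpha B-crystallin, a lens protein that is also stress-responsive in many other cells. Chromatin held 0.225 (0.128 to 0.365, 16 reads) RPKM of Cryab without heat shock and 5.86 (5.33 to 6.44, 444 reads) after it. Cytoplasm held 2.64 (2.11 to 3.27, 85 reads) and 5.68 (4.99 to 6.44, 245 reads). Unstressed chromatin stood far below the other 3 libraries, while in unstressed cytoplasm Cryab was already the highest of the 7 genes by RPKM. That place rests on the implied length of 3876 bp, since Cryab was 3rd over its RefSeq span and 3rd by reads. The heat shock ratio was 26.1-fold in chromatin (15.9 to 46.0) and 2.15-fold in cytoplasm (1.67 to 2.78).

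Hspb8 encodes HSP22, the main small heat shock protein partner of BAG3. Its chromatin RPKM was 2.34 (2.16 to 2.53, 617 reads) without heat shock and 7.04 (6.73 to 7.35, 1976 reads) after it. The cytoplasmic RPKM was 1.62 (1.40 to 1.86, 193 reads) and 3.14 (2.87 to 3.42, 502 reads). It had the most reads of the 7 genes in both unstressed libraries. Its heat shock ratios were the lowest of the 4 genes past the minimum level, 3.01-fold in chromatin (2.75 to 3.30) and 1.94-fold in cytoplasm (1.64 to 2.30). In cytoplasm its interval overlapped that of Cryab (2.15, 1.67 to 2.78).

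Bag3 is the partner that couples HSPB8 to HSP70. Bag3 RPKM in chromatin was 1.16 (1.06 to 1.26, 496 reads) without heat shock and 7.31 (7.06 to 7.56, 3335 reads) after it. In cytoplasm it was 0.464 (0.374 to 0.571, 90 reads) and 2.61 (2.41 to 2.81, 678 reads). Each heat shock library was above the unstressed library of its fraction, by 6.32-fold in chromatin (5.75 to 6.96) and 5.61-fold in cytoplasm (4.50 to 7.07). These ratios lay above those of its partner Hspb8 in both fractions, with intervals that did not overlap.

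Hspb2, Hspb6 and Hspb7 are the members best known from heart and skeletal muscle: HSPB2 binds the myotonic dystrophy protein kinase, HSPB6 is HSP20 and HSPB7 is the cardiovascular heat shock protein. All 3 had 20 reads or fewer in every library, and none reached a mean of 1 RPKM. Hspb2 had 8 reads in unstressed chromatin, 14 in chromatin after heat shock, 13 in unstressed cytoplasm and 11 in cytoplasm after heat shock, or 0.340, 0.559, 1.22 and 0.770 RPKM. Hspb6 had 12, 17, 10 and 5 reads in the same order (0.200, 0.266, 0.369 and 0.138 RPKM). Hspb7 had 8, 20, 2 and 11 reads (0.0961, 0.226, 0.0532 and 0.218 RPKM).

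The heat shock ratio of Hspb2 was 1.65 in chromatin (0.644 to 4.53) and 0.630 in cytoplasm (0.256 to 1.52). That of Hspb6 was 1.33 (0.599 to 3.06) and 0.372 (0.0999 to 1.20), and that of Hspb7 was 2.35 (0.992 to 6.17) and 4.10 (0.894 to 38.0). All 6 intervals held 1, so no difference of these genes was detectable at this depth. Hspb2 lies within the RefSeq span of Cryab, and its chromatin ratio was 1.65 where that of Cryab was 26.1, with intervals that did not overlap.

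**Figure D2:**
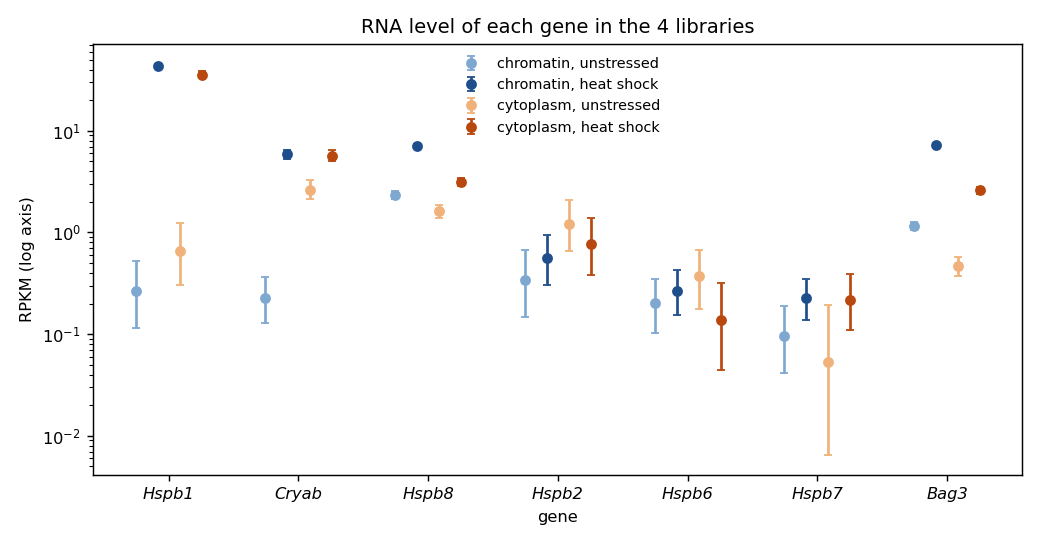
RPKM of each gene (log axis) in the 4 libraries, with points for the library value and bars for exact 95% Poisson intervals. Hspb1 goes from 0.265 to 43.5 in chromatin and from 0.660 to 35.4 in cytoplasm, while the intervals of Hspb2, Hspb6 and Hspb7 overlap within each fraction.

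**Figure D3:**
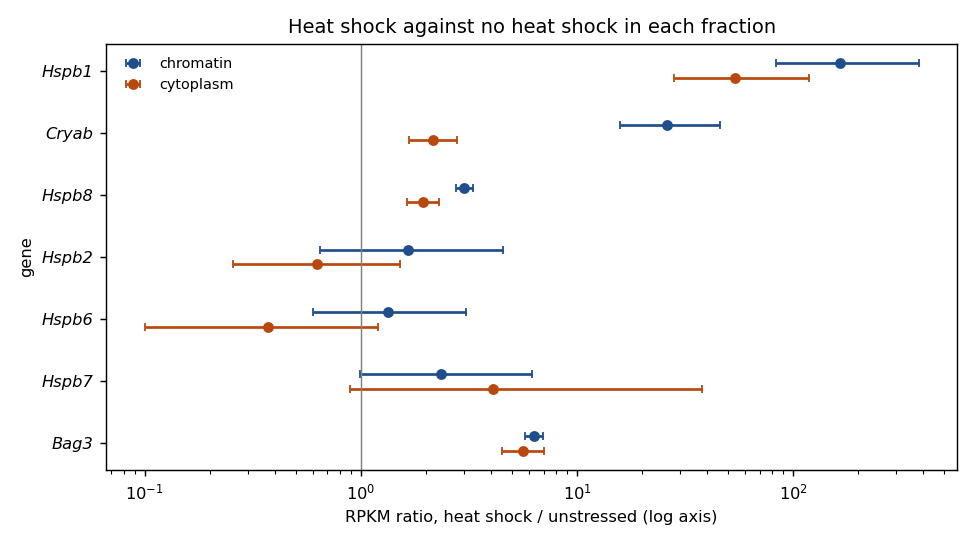
RPKM ratio of heat shock to unstressed (log axis) for each gene in chromatin and cytoplasm, with exact 95% intervals for counting error. The 4 genes Hspb1, Cryab, Hspb8 and Bag3 lie right of 1 in both fractions, and Cryab has the widest gap between fractions, 26.1 against 2.15.

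The order of RPKM levels among the 7 genes was not the same in the 4 libraries. In unstressed chromatin Hspb8 was highest and Bag3 next, and the remaining 5 stood between 0.340 (Hspb2) and 0.0961 (Hspb7) with no neighbours in that order whose ratio interval left out 1. In chromatin after heat shock Hspb1 was 5.95 times as high as Bag3 (5.59 to 6.34). Bag3 and Hspb8 did not differ beyond counting error there (1.04, 0.982 to 1.10), Cryab was below Hspb8, and Cryab exceeded Hspb2 10.5-fold (6.19 to 19.4).

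In unstressed cytoplasm Cryab was highest, 1.63 times Hspb8 (1.25 to 2.12), and from Hspb8 down through Hspb2, Hspb1, Bag3 and Hspb6 no neighbours differed beyond counting error. Hspb6 exceeded Hspb7 there. In cytoplasm after heat shock the order was Hspb1, Cryab, Hspb8, Bag3, Hspb2, Hspb7 and Hspb6, and Hspb1 was 6.24 times Cryab (5.38 to 7.26). Of the neighbours in that order, Hspb7 and Hspb6 alone did not differ beyond counting error (1.59, 0.508 to 5.82). The place of Cryab rests on the implied length: over its longer RefSeq span its RPKM would be 0.0815 in unstressed chromatin (7th of 7 in place of 5th) and 0.959 in unstressed cytoplasm (3rd in place of the highest). After heat shock it would be 2.06 in cytoplasm (4th in place of 2nd, below Hspb8 and Bag3) and 2.13 in chromatin (4th on either length). The fold differences between Cryab and its neighbours depend on that length too. Spans include introns, so for long genes such as Bag3 these levels are lower than levels per exon length would be.

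Set against all genes, the members' heat shock ratios were read from the log2 ratio of RPKM + 1, with 2-fold as the call. In chromatin Hspb1 stood at 5.14, Cryab at 2.49, Bag3 at 1.95 and Hspb8 at 1.27, so 4 of the 7 genes were called higher, where 10.4% of the 4635 genes were. In cytoplasm Hspb1 (4.46) and Bag3 (1.30) were called, 2 of the 7, where 3.4% of 4505 genes were, while Cryab stood at 0.87 and Hspb8 at 0.66. Hspb2, Hspb6 and Hspb7 were outside both counts because of the minimum mean. Hspb1 and Bag3 exceeded 1 RPKM on average through their heat shock libraries, so the counts of those past the minimum carry no support of their own.

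A rule that admits all 7 genes, plain ratios over genes with at least 10 reads in the compared libraries together, was added after the values were seen. It called Hspb1, Cryab, Hspb8, Hspb7 and Bag3 in chromatin, 5 of 7 against 24.4% of 17521 genes. In cytoplasm it called Hspb1, Cryab, Hspb7 and Bag3, 4 of 7 against 12.8% of 12213 genes. The median log2 ratio of the 7 was 1.59 in chromatin and 1.10 in cytoplasm, beside 0.08 and -0.54 over all genes under that rule. The call of Hspb7 rests on 8 and 20 reads in chromatin and on 2 and 11 in cytoplasm, and its intervals held 1. Hspb1 (8 and 9 unstressed reads) and Hspb7 reached 10 reads in each fraction only with the heat shock library. The counts under this rule therefore carry no support of their own either.

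RPKM divides by a library's total, so the ratios depend on that scale, and with 1 RPKM added the shift differs between low and high genes. With the libraries rescaled to the same RPKM sum, the median of all genes moved from 0.12 to -0.38 in chromatin, and Hspb8 stood at 0.84, under the 2-fold call, while Hspb1 went from 5.14 to 5.36. In cytoplasm it moved from -0.25 to -0.29, and Bag3 stood at 0.98, just under it. Relative to the median gene, the log2 ratio of RPKM + 1 of Hspb8 was 1.15 in chromatin and 0.91 in cytoplasm, Bag3 1.83 and 1.55, Cryab 2.37 and 1.13, and Hspb1 5.02 and 4.71. With the median gene at 0, Hspb1, Cryab and Bag3 passed 2-fold in cytoplasm, 3 of the 4 members tested, where 203 of 4505 genes did. All 4 tested members passed it in chromatin, where 391 of 4635 genes did. Genes higher made up 57.6% of all genes past 2-fold in either direction in chromatin with the median gene at 0. They made up 26.1% on the scale of equal RPKM sums and 69.0% as deposited. In cytoplasm the corresponding shares were 73.6%, 47.9% and 58.2%. Hspb1, Cryab, Hspb8 and Bag3 were higher after heat shock under all of the scales and pseudocounts run, in both fractions. So was Hspb7, but on 8 and 20 reads in chromatin and 2 and 11 in cytoplasm, with intervals that held 1. Hspb2 kept its sign within each fraction, at 0.035 to 0.72 in chromatin and -0.67 to -0.08 in cytoplasm. Hspb6 was lower in cytoplasm throughout and changed sign in chromatin. The intervals of Hspb2 and Hspb6 held 1 too.

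**Figure D4:**
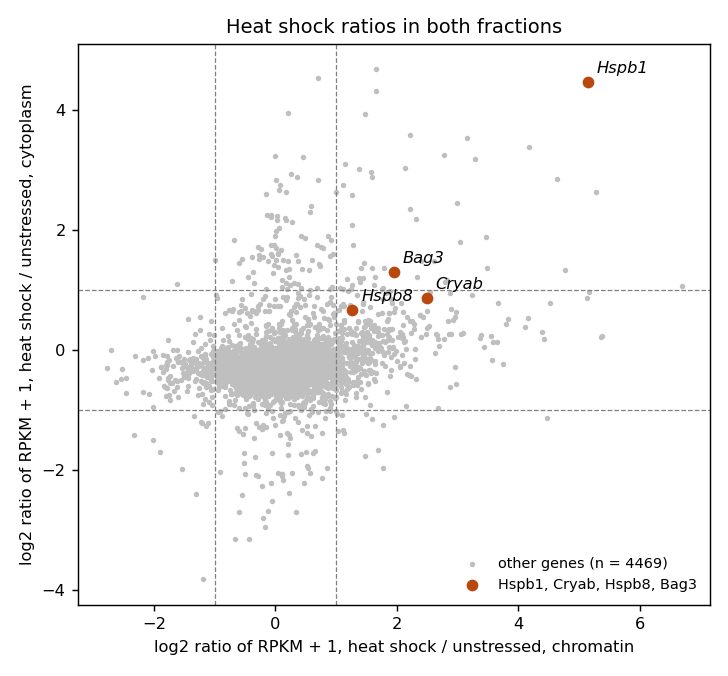
Each point is a gene averaging 1 RPKM or more and listed in all 4 libraries; the axes give the log2 ratio of RPKM + 1 after heat shock in chromatin (horizontal) and cytoplasm (vertical), and dashed lines mark 2-fold. Hspb1 lies at 5.14 and 4.46 in the upper right, and Bag3, Cryab and Hspb8 lie right of the 2-fold line for chromatin with only Bag3 also above that for cytoplasm.

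The fractions were then compared within each condition. Without heat shock Cryab RNA was 11.8-fold lower in chromatin than in cytoplasm on the deposited scale (interval 6.84 to 21.5), and Hspb2 was 3.60-fold lower (1.38 to 10.0). Bag3 was 2.49-fold higher in chromatin on that scale (1.98 to 3.15). With the median gene at 0 its log2 value was 0.35 as a plain ratio and -0.02 on RPKM + 1. Hspb8 was 1.44-fold higher (1.23 to 1.71) on the deposited scale, but at -0.44 as a plain log2 ratio with the median gene at 0 and at -0.23 on RPKM + 1. The intervals of Hspb1 (0.401, 0.135 to 1.17), Hspb6 (0.542, 0.215 to 1.40) and Hspb7 (1.81, 0.360 to 17.5) held 1. With RPKM + 1, 0 of the 4 members past the minimum mean were called higher in chromatin where 32.4% of 4512 genes were, and 1, Cryab, was called lower where 11.7% were.

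After heat shock the chromatin to cytoplasm ratio was 2.80 for Bag3 (2.58 to 3.05), 2.24 for Hspb8 (2.03 to 2.48), 1.23 for Hspb1 (1.12 to 1.35) and 1.03 for Cryab (0.881 to 1.21). The median gene had a plain log2 ratio of 1.65 toward chromatin after heat shock, above all 4 of these. With that median at 0 the plain log2 ratio was -0.16 for Bag3, -0.48 for Hspb8, -1.35 for Hspb1 and -1.60 for Cryab, so none of the 4 kept its direction on every scale. Of the 4 members past the minimum mean, Bag3 alone was called higher in chromatin, at a log2 ratio of 1.20, where 45.8% of 4575 genes were. For Hspb2 (0.725, 0.306 to 1.77), Hspb6 (1.94, 0.686 to 6.72) and Hspb7 (1.04, 0.473 to 2.39) the interval held 1. The sign of these differences depended on the scale for most members. Under all pseudocounts and scales run, Cryab and Hspb2 were lower in chromatin without heat shock, and no member kept its direction after it. With equal RPKM sums the unstressed log2 ratio of RPKM + 1 was -0.955 for Cryab but only -0.083 for Hspb2, which had 8 and 13 reads. The median gene stood at a plain log2 ratio of 0.97 toward chromatin without heat shock. On RPKM + 1 the median was 0.58 without and 0.92 after heat shock, and with equal RPKM sums 1.73 and 1.59. Genes higher in chromatin made up 73.4% of genes past 2-fold without heat shock, 95.2% with equal RPKM sums and 37.9% with the median gene at 0, all on RPKM + 1. After heat shock they made up 86.9%, 97.2% and 33.4%.

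**Figure D5:**
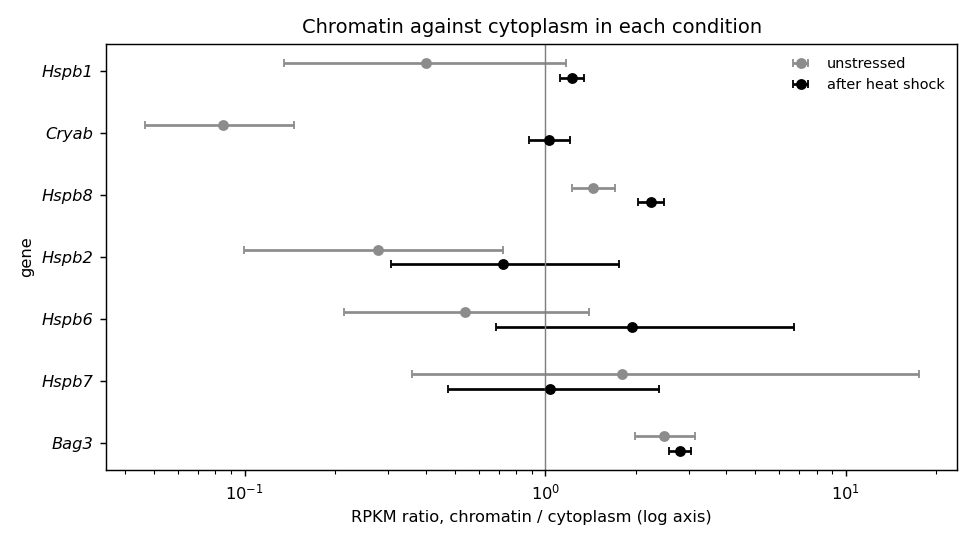
RPKM ratio of chromatin to cytoplasm (log axis) for each gene without and after heat shock, with exact 95% intervals for counting error. On the deposited scale, Cryab is at 0.0850 and 1.03, without and after heat shock, while Bag3 stands at 2.49 and 2.80. Relative to the median gene, the plain log2 ratio of Bag3 is 0.35 without and -0.16 after heat shock, and that of Cryab after heat shock is -1.60.

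The last comparison set the heat shock ratio in chromatin against that in cytoplasm for the same gene. The chromatin ratio was 12.1 times the cytoplasmic one for Cryab (exact conditional interval 6.86 to 22.7), 3.06 times for Hspb1 (1.04 to 9.14) and 1.55 times for Hspb8 (1.28 to 1.88). The median gene itself had a plain log2 difference of 0.70 toward chromatin. Relative to the median genes of both fractions, Cryab stood at 2.90 and Hspb1 at 0.91, but Hspb8 at -0.06 and Bag3 at -0.53. For Bag3 the 2 ratios, as deposited, did not differ beyond counting error (1.13, 0.876 to 1.44). The intervals also held 1 for Hspb2 (2.61, 0.690 to 10.1), Hspb6 (3.58, 0.825 to 16.7) and Hspb7 (0.574, 0.0517 to 3.70). With RPKM + 1, Cryab was the 1 member past the minimum mean whose log2 ratios differed between fractions by 1 or more toward chromatin (1.61), as did 16.5% of 4473 genes, and the median gene was at 0.37 on that scale. Bag3 had a difference of 0.65 on that scale and 0.17 without the pseudocount, which lowers ratios more in cytoplasm, where Bag3 RPKM was lower. The Cryab difference was between 1.24 and 3.60 over all of the scales and pseudocounts run.

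Genes with the most similar profile were sought by the Euclidean distance over the 4 values of log2(RPKM + 1) among 4688 genes. No other member was among the 3 nearest genes of Hspb1, Cryab, Hspb8 or Bag3, and those genes are not named because the identifiers are not paired with symbols here. The gene nearest to Hspb1 had an implied length of 3728 bp and lay at a distance of 1.07, with 0.774 and 31.1 RPKM in chromatin and 1.81 and 28.3 in cytoplasm, without and after heat shock. No gene lay within a distance of 1 of Hspb1, against 1 gene for Cryab, 25 for Bag3 and 95 for Hspb8.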

How the data were processed

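RNA of the chromatin and cytoplasm of unstressed and heat-shocked mouse embryonic fibroblasts was analysed from 1 table per library, grouped by sample title. The authors deposited RPKM per Ensembl identifier; each table lists only genes with a read. Per the submitters' processing notes, cutadapt, STAR and GRCm38 were used. For the counter, annotation release and strand handling, nothing is given in the sources used here. Per the labels' protocols, short RNA fragments were selected on gels.

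Library totals were recovered as common divisors of the inverse RPKM values (whole within 0.002), then reads and lengths per gene as the smallest whole numbers giving all values, with relative errors below 1e-12. A factor shared by a gene's length and all its reads would go unseen, and intervals would then be too wide. The recovered reads made up 98.4% to 99.7% of the totals. The procedure was also run on simulated data, but the outcome is not reported here and lends the values no support. For each gene, log2 ratios of RPKM + 1 were taken over genes with a mean of at least 1 RPKM, and 2-fold was the call. No test was made. Alternatives changed the pseudocount, filter, scale and threshold; plain ratios over genes with at least 10 reads, and with their median at 0, were added after seeing the data. By the naming rule, all 7 members and the 3 nearest profiles of each member past the filter were taken, unnamed without symbols. Members and lists were chosen with earlier results of these data known. Lists of partner, neighbour and marker genes were not used, since identifiers could not be paired with symbols. Start-site windows are from RefSeq (GRCm38.p6). Python 3.11.15, numpy 2.4.6, pandas 2.3.3, scipy 1.17.1 and matplotlib 3.10.9 were used.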

Additional observations from a re-analysis of the deposited data

Results flagged for a closer look

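Hspb2 and Hspb6 were higher after heat shock in the chromatin library and lower in the cytoplasm library. The heat shock RPKM ratio in chromatin over that in cytoplasm was 2.61 for Hspb2 (0.690 to 10.1) and 3.58 for Hspb6 (0.825 to 16.7). These intervals held 1, as did those of both genes' heat shock ratios within each fraction. With 1 library per group the difference was not tested, and it rests on 5 to 17 reads per library. With the median gene at 0, the chromatin log2 ratio of Hspb6 was -0.04 on RPKM + 1 and 0.24 as a plain ratio.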

How the results depend on the processing

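Of 35 log2 ratios (7 genes in 5 comparisons), 19 kept their sign under the 6 alternative pseudocounts and scales. Of the 210 values, 27 changed sign, 22 of them between chromatin and cytoplasm. The count of members higher after heat shock in chromatin (4) was 1 with a mean of at least 5 RPKM and 2 at a 4-fold threshold. In cytoplasm (2) it was 1 with equal RPKM sums, the 5 RPKM filter or at 4-fold. It was 3 with either lower pseudocount (0.1 RPKM or none), the median at 0 or without the 10 highest genes. It was 4 with plain ratios over genes with at least 10 reads or with their median at 0, both chosen after seeing the data. With the 5 RPKM filter 205 of 763 genes were higher in chromatin and 65 of 759 in cytoplasm. At 4-fold all genes were not counted, so members lack a comparison. In cytoplasm 114 of 4505 genes were higher with equal RPKM sums and 203 to 272 where 3 members were. Plain ratios with their median at 0 gave 422. Members higher in chromatin without heat shock (0) numbered 1 with either lower pseudocount and 2 with equal RPKM sums, of 4 tested. Of all 4512 genes, 2163 and 2226 were higher with the lower pseudocounts and 3334 with equal RPKM sums. After heat shock the members (1) numbered 2 with either lower pseudocount and 4 with equal RPKM sums. They numbered 0 with the median at 0 (on RPKM + 1 or plain ratios), without the 10 highest genes, with the 5 RPKM filter or at 4-fold. Of all 4575 genes, 2853 and 2914 were higher with the lower pseudocounts, 3469 with equal RPKM sums and 1515 without the 10 highest genes. With the median at 0, 392 were on RPKM + 1 and 1090 on plain ratios. The member count thus rose with that of all genes. Members whose heat shock log2 ratio in chromatin exceeded that in cytoplasm by 1 or more (1) numbered 2 with either lower pseudocount and with equal RPKM sums, and 0 with the 5 RPKM filter and at 4-fold. Of all 4473 genes, 1366 and 1539 did with the lower pseudocounts and 434 with equal RPKM sums. Bag3 between chromatin and cytoplasm after heat shock, called at 1.20, was at -0.16 as a plain log2 ratio with the median at 0. Hspb1 alone passed the 5 RPKM filter.

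Over all genes, the number at least 2-fold higher after heat shock ran from 205 to 781 in chromatin (481 in the main setting) and from 65 to 422 in cytoplasm (153) over the pseudocounts, scales and mean RPKM filters. Plain ratios over genes with at least 10 reads, which take in far more genes, gave 4283 and 1569. Toward chromatin it ran from 206 to 3334 without heat shock (1460) and from 266 to 3469 after it (2096), and genes higher were 37.9% to 95.2% and 33.4% to 97.2% of those past 2-fold. For the difference between fractions it ran from 302 to 1539 (737). These were 44.8% to 86.3% of genes past the threshold in either direction (78.5%). The lowest counts came with the 5 RPKM filter, which left 752 to 763 genes against 4473 to 4635 in the main setting. They are not the lowest shares. Levels per kilobase of exons were not run, since no exon lengths were at hand. Depth limits Hspb2, Hspb6 and Hspb7 (2 to 20 reads) and unstressed Hspb1 (8 and 9).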
